A study of Mus musculus with 12 samples.

Results

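Amino acid transporter genes were examined in RNA-seq libraries of mouse neural stem/progenitor cells (NSPCs) that carried or lacked Ythdf2, a reader protein that binds m6A-modified mRNA and promotes its decay. The genes were chosen by symbol as all numbered members of the Slc1a, Slc3a, Slc6a, Slc7a, Slc36a, Slc38a and Slc43a families, leaving out the glial glutamate transporters *Slc1a2* and *Slc1a3*. This gave 59 of the 24525 genes in the table. NSPCs were grown as neurospheres at passage 1 from E14.5 forebrain of C57BL/6 mice, with EGF at 20 ng/ml, bFGF at 10 ng/ml and B27 lacking vitamin A. The 3 wild-type and 3 *Ythdf2-/-* input libraries were used here, and *Ythdf2-/-* embryos were bred by crossing heterozygotes. The mutant allele had been made by deleting the LoxP-flanked 5′ UTR and first exon of *Ythdf2* with a ubiquitously expressed Cre, so the deletion was not limited to neural cells. The paper describes the sequencing as done with 3 biological replicates. The labels number the samples within a genotype but do not say that they came from separate embryos or cultures. The p-values then measure only the spread between these samples. The comparison asked whether the level of each transporter mRNA differed between genotypes.

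Amino acids do not cross membranes unaided, and each transporter family moves a characteristic set of substrates with its own driving force. Slc1, Slc6 and most Slc38 proteins use the sodium gradient, and some Slc36 proteins, such as Slc36a1, use protons. Many Slc7 proteins are light chains that exchange one amino acid for another and reach the membrane only when joined to an Slc3 heavy chain. In the brain these proteins take up the transmitters glutamate, GABA and glycine, pass glutamine between cells, and bring in cystine for glutathione synthesis, and several sit on the lysosome, where amino acid supply is read by the mTORC1 pathway.

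The libraries held 11029827 to 13185778 counted reads. *Ythdf2* lay at 71.9, 73.3 and 91.4 CPM (counted reads scaled to a common library size, with TMM factors) in wild-type replicates 1, 2 and 3 and at 11.7, 14.7 and 11.1 CPM in the *Ythdf2-/-* replicates, in the order of their labels. All 10 neural progenitor markers passed the filter on low counts, with a summed level of 3885 to 7073 CPM, while the defining markers *C1qa* of microglia and *Cldn5* of endothelium were at 0 in the 6 libraries. Wild-type replicate 3 stood apart. Its summed astrocyte markers (8 of 8 passed) reached 12166 CPM against 2752 to 7462 CPM elsewhere, its summed neuron markers (8 of 10 passed, with *Slc17a6* at 0) reached 1989 CPM against 1090 to 1332 CPM, and its summed oligodendrocyte lineage markers (7 of 8 passed) reached 3424 CPM against 1574 to 1903 CPM. Its summed progenitor markers were the lowest of the 6. The summed mesenchymal markers (1 of 6 passed) reached 32.4 CPM there against 0.889 to 4.35 CPM elsewhere, while microglial (3 of 8 passed) and endothelial (1 of 6 passed) markers summed to 4.01 to 10.2 and 1.01 to 3.51 CPM over the 6 libraries. Single markers could differ from these sums. *Gfap*, 1 of the 8 astrocyte markers, lay at 437, 625 and 3046 CPM in wild type and at 127, 87.7 and 5.55 CPM in *Ythdf2-/-* libraries. Its adjusted p was 0.999 by edgeR, and the astrocyte sums overlapped between genotypes. The neuron marker *Dcx* lay at 315 CPM in wild-type replicate 3 against 8.36 to 13.1 CPM elsewhere. The part of these markers in the transporter values was not tested. Values without wild-type replicate 3 are given beside the members whose values it moved most, and for 34 members in the plot of log2 fold changes. Reads on 4 Y-linked genes were also unevenly spread, with 1111 and 1638 in wild-type replicates 1 and 2 and 2147 in *Ythdf2-/-* replicate 3, and 0 to 1 in the others.

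Promoters were searched for TGATGNAA, the core of the amino acid response element bound by ATF4 and its C/EBP partners. RefSeq promoter sequences (GRCm38.p6, 250 bases before to 50 after a listed start) were matched for 41 of the 59 genes by symbol, and 4 of them held the letters on either strand (9.76%), against 4.51% of all 27025 genes with such a sequence. One was *Slc6a21*, which had no reads, and the other 3 are printed to show where the letters lie in genes that were measured. Capitals mark the motif or its reverse complement, and each sequence is read 5′ to 3′ on the strand of the gene.
Slc7a11: cTGATGCAAacctggagaatTTGCATCAtc
Slc1a4: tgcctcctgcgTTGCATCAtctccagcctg
Slc7a7: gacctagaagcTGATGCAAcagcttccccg
The *Slc7a11* stretch lies on the minus strand at chr3:50443651-50443680 and holds the motif in both orientations, starting at -66 and -47 relative to the gene's start. The *Slc1a4* stretch (minus strand, chr11:20332699-20332728) holds it at -4, and the *Slc7a7* stretch (minus strand, chr14:54417927-54417956) at -1 from one listed start and -243 from another. *Slc7a7* also held a further match, not printed, at -141 from a listed start. A match describes these letters only, and binding was not measured.

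Of the 59 transporter genes, 35 had enough reads to be tested and 24 did not. Of the latter, 7 had no read in any library, namely *Slc6a12*, *Slc6a14*, *Slc6a21*, *Slc7a9*, *Slc7a12*, *Slc7a15* and *Slc38a5*. A count of 0 allows up to 3 reads, or 0.222 to 0.275 CPM depending on the library, for counting error only. The other 17 had 1 to 11 reads in their highest library. They were *Slc1a7* (7 reads), *Slc3a1* (4), the monoamine transporters *Slc6a2* (6), *Slc6a3* (11) and *Slc6a4* (2), *Slc6a5* (1), *Slc6a7* (4), *Slc6a13* (8), *Slc6a16* (2), *Slc6a19* (1), *Slc7a13* (11), *Slc36a2* (3), *Slc36a3* (1), *Slc38a4* (1), *Slc38a8* (2), *Slc38a11* (4) and *Slc43a3* (11).

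To compare levels between genes, CPM were divided by exon length in kilobases to give RPKM. In all, 28 members exceeded 1 RPKM and 15 exceeded 10 RPKM. Among the highest, the astrocytic GABA transporter *Slc6a11* (GAT3) lay at a mean of 157 RPKM over the 6 libraries. The heavy chain *Slc3a2* (4F2hc) followed at 90.5 RPKM, then the glutamine transporter *Slc38a3* at 68.1 RPKM, the large neutral amino acid light chain *Slc7a5* (LAT1) at 63.6 RPKM, the glycine transporter *Slc6a9* (GLYT1) at 45.6 RPKM and the serine and alanine exchanger *Slc1a4* (ASCT1) at 37.4 RPKM. *Slc7a11* stood sixteenth at 9.46 RPKM. The ranges of neighbouring genes in this order overlapped, and the ratio of the highest to the lowest library ran from 1.25 in *Slc1a4* to 25.0 in *Slc1a1*, with a median of 2.17.

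**Figure D1:**
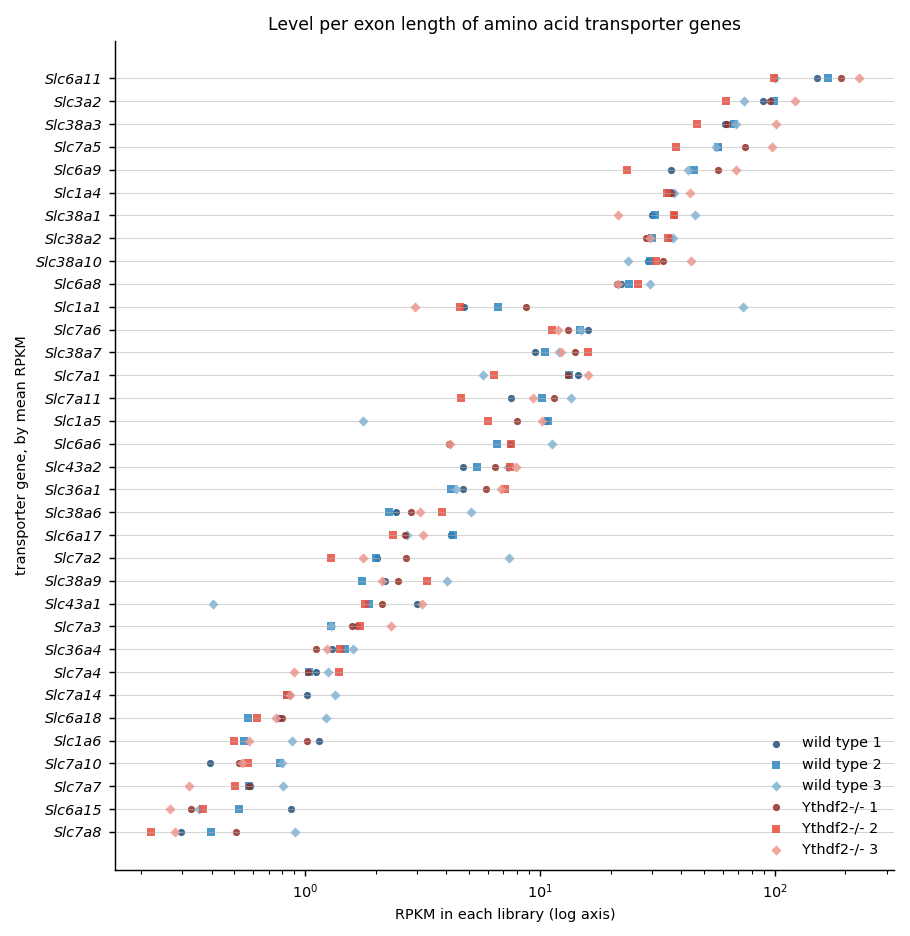
RPKM of 34 of the 35 transporter genes tested in each of the 6 libraries, on a log axis, ordered by mean level. Blue symbols are wild-type and red symbols *Ythdf2-/-* replicates. *Slc6a11* lies at the top, and wild-type replicate 3 lies far to the right for *Slc1a1* and far to the left for *Slc1a5* and *Slc43a1*.

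No transporter gene differed between genotypes at an adjusted p under 0.05 by edgeR's quasi-likelihood test. In this fit the deleted gene *Ythdf2* itself, with a log2 fold change of -2.66, had an adjusted p of 0.0547. The share of all 13112 genes called was 0.0%, and DESeq2 and limma-voom with sample quality weights, which called 31 (0.236%) and 151 (1.15%) of all genes, also called 0 members. Each of the 35 members had an adjusted p of 0.999. An unadjusted p under 0.05 was found for 3 members by edgeR, which is 8.57% of those tested against 3.63% of all genes. Of these, 2 were higher in *Ythdf2-/-* cells, as were 1.81% of all genes, and 1 was lower, as were 1.82%. In 5 members the libraries of the genotypes did not overlap, or 14.3% against 10.2% of all genes. *Ythdf2-/-* was above in 3 of them (5.24% of all genes) and below in 2 (4.92% of all genes). The log2 fold change (*Ythdf2-/-* relative to wild type) was above 0 in 15 members and below 0 in 20, while 48.1% of all genes lay above 0, and its median was -0.030 against -0.011 over all genes. Its median size without regard to sign was 0.30 against 0.16 over all genes. In such bulk samples fewer cells of a type and less RNA per cell cannot be told apart.

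Without wild-type replicate 3, 36 members were tested and 6 had an unadjusted p under 0.05 by edgeR's test. This share, 16.7%, stood beside 16.6% of all genes. The transporters *Slc36a1*, *Slc38a7* and *Slc43a2* were higher and *Slc6a15*, *Slc6a17* and *Slc7a6* lower in *Ythdf2-/-* cells. The genotypes did not overlap in 9 members (25.0%, against 38.9% of all genes), and the median log2 fold change was -0.031 against 0.014 over all genes. The log2 fold change was above 0 in 16 members, while 51.7% of all genes lay above 0. In that fit 0 members and 0.0151% of all genes had an adjusted p under 0.05.

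**Figure D2:**
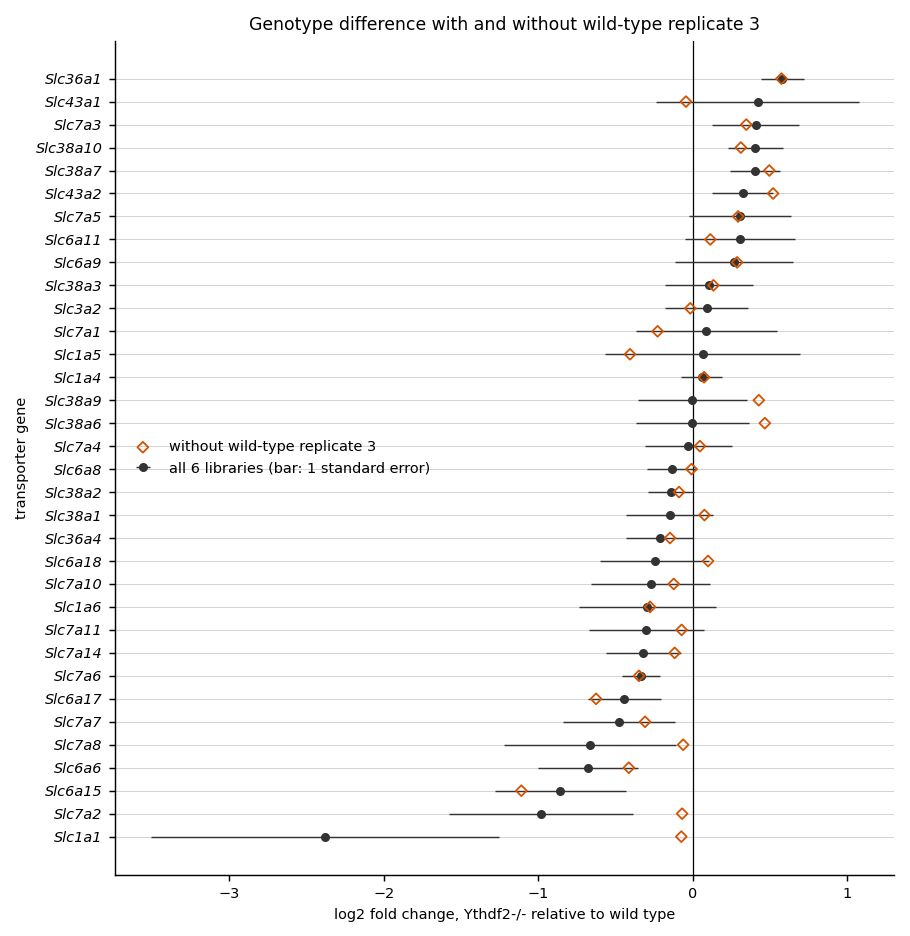
Log2 fold change of 34 of the 35 tested transporter genes, *Ythdf2-/-* relative to wild type, with all 6 libraries (black points, bars of 1 standard error) and without wild-type replicate 3 (open orange diamonds). *Slc1a1* moved from -2.38 to -0.075 and *Slc7a2* from -0.98 to -0.070, while *Slc36a1* stayed near 0.58.

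Within the Slc36 family, the proton-coupled *Slc36a1* (PAT1), which exports small neutral amino acids from lysosomes, gave the smallest p of all transporter genes tested. It lay at 24.7, 22.1 and 23.2 CPM in the wild-type libraries and at 31.1, 37.5 and 35.9 CPM in the *Ythdf2-/-* libraries. Every *Ythdf2-/-* library was above every wild-type library. The means were 23.3 ± 1.31 and 34.8 ± 3.33 CPM (SD, n = 3 each). The fitted log2 fold change was 0.58 (standard error 0.141, unadjusted p = 0.00554, adjusted p = 0.999 by edgeR), or 1.49-fold. Leaving out any single library kept this value between 0.53 and 0.66. Its relative *Slc36a4*, a high-affinity proline and tryptophan transporter, lay at 7.27, 8.24 and 8.88 CPM against 6.22, 7.85 and 6.92 CPM. These ranges overlapped, and the log2 fold change was -0.22 (standard error 0.215), or -0.13 without *Ythdf2-/-* replicate 1.

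The Slc38 family holds sodium-coupled transporters of glutamine and other neutral amino acids, 7 of 11 members being tested, and 2 of them did not overlap between genotypes, a state found in 10.2% of all genes. *Slc38a7* (SNAT7), which moves glutamine out of lysosomes, lay at 31.2, 34.6 and 39.4 CPM in wild type and at 46.1, 52.6 and 40.3 CPM in *Ythdf2-/-* libraries. The lowest *Ythdf2-/-* library exceeded the highest wild-type library by a narrow margin. Its log2 fold change was 0.40 (standard error 0.162, unadjusted p = 0.0453, adjusted p = 0.999 by edgeR), and 0.31 to 0.49 as each library was left out. *Slc38a10*, a glutamate, glutamine and alanine transporter of neurons and astrocytes, lay at 157, 160 and 129 CPM against 181, 170 and 238 CPM. All 3 *Ythdf2-/-* values were the higher, with a log2 fold change of 0.40 (standard error 0.179, unadjusted p = 0.0631, adjusted p = 0.999 by edgeR). It was 0.24 without *Ythdf2-/-* replicate 3 and 0.51 (unadjusted p = 0.0481 by edgeR) without *Ythdf2-/-* replicate 2.

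The 2 most abundant Slc38 members showed no such separation. *Slc38a3* (SN1), which releases glutamine from astrocytes, lay at 168, 182 and 187 CPM in wild type and at 172, 128 and 277 CPM in *Ythdf2-/-* libraries. The mutant libraries lay on both sides of the wild-type values, and the log2 fold change of 0.10 (standard error 0.285) became -0.26 without *Ythdf2-/-* replicate 3 and 0.34 without *Ythdf2-/-* replicate 2. *Slc38a1* (SNAT1), a glutamine importer of neurons, lay at 251, 258 and 383 CPM against 312, 312 and 181 CPM. Its highest value was wild-type replicate 3 and its lowest *Ythdf2-/-* replicate 3, and the log2 fold change of -0.15 (standard error 0.281) became 0.075 without the former and 0.068 without the latter. The amino acid-responsive *Slc38a2* gave -0.14 (-0.23 to -0.070 as each library was left out), while the lysosomal arginine sensor *Slc38a9* gave -0.0033 and *Slc38a6* -0.0044, which became 0.43 and 0.47 without wild-type replicate 3.

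In the Slc7 family, 11 of 15 members were tested, 3 with a log2 fold change above 0 and 8 below. *Slc7a6* (y+LAT2), a light chain that exchanges cationic for neutral amino acids, lay at 60.6, 55.7 and 56.6 CPM in wild type and at 49.6, 42.3 and 45.1 CPM in *Ythdf2-/-* libraries. All wild-type values were above all mutant values. The means were 57.6 ± 2.61 and 45.7 ± 3.71 CPM (SD, n = 3 each). The fitted log2 fold change was -0.34 (standard error 0.123, unadjusted p = 0.0325, adjusted p = 0.999 by edgeR) and ran from -0.39 to -0.27 as each library was left out. The related *Slc7a7* (y+LAT1) lay at 1.45, 1.45 and 2.01 CPM against 1.45, 1.26 and 0.805 CPM. It did not overlap only because wild-type replicate 2 and *Ythdf2-/-* replicate 1 differed beyond the digits printed, at 10 to 22 reads a library, and its exons share 228 bases with the opposite-strand gene *Oxa1l*. Its log2 fold change was -0.48 (standard error 0.364, unadjusted p = 0.232 by edgeR), and was -0.31 without wild-type replicate 3 and -0.27 without *Ythdf2-/-* replicate 3.

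Of the cationic amino acid transporters of this family, *Slc7a2* (CAT2) lay at 15.9, 15.7 and 58.0 CPM in wild type and at 21.2, 10.1 and 13.9 CPM in *Ythdf2-/-* libraries. Wild-type replicate 3 was far above the other 5 libraries, and the log2 fold change of -0.98 (standard error 0.594) was -0.070 without it. *Slc7a3* (CAT3) lay at 4.02, 3.13 and 3.11 CPM against 3.84, 4.15 and 5.63 CPM. These overlapped, with a log2 fold change of 0.41 (standard error 0.281) that was 0.22 without *Ythdf2-/-* replicate 3. *Slc7a1* (CAT1), the most abundant of them at 11.5 RPKM, ranged from 41.3 CPM in wild-type replicate 3 to 116 CPM in *Ythdf2-/-* replicate 3, and its log2 fold change of 0.087 was -0.23 without wild-type replicate 3. The other tested members, *Slc7a4*, *Slc7a8*, *Slc7a10* and *Slc7a14*, lay at 0.435 to 1.12 RPKM with log2 fold changes of -0.67 to -0.030, and in each the genotypes overlapped. That of *Slc7a8*, the lowest at -0.67, was -0.063 without wild-type replicate 3, and -1.07 without *Ythdf2-/-* replicate 1. As each library was left out, that of *Slc7a14* ran from -0.47 to -0.12 and that of *Slc7a10* from -0.53 to -0.12. The exons of *Slc7a10* share 234 bases with the opposite-strand gene *Lrp3*.

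The light chain *Slc7a5*, which imports leucine and other large neutral amino acids, lay at 202, 202 and 197 CPM in wild type and at 264, 134 and 343 CPM in *Ythdf2-/-* libraries. The wild-type libraries were nearly equal while the mutant libraries lay both above and below them. Across genotypes the log2 fold change was 0.30 (standard error 0.328) and was -0.0071 without *Ythdf2-/-* replicate 3 and 0.61 (unadjusted p = 0.0139 by edgeR) without *Ythdf2-/-* replicate 2. Its heavy chain *Slc3a2* lay at 265, 294 and 219 CPM against 283, 183 and 362 CPM. The mutant libraries again spanned the wild-type range, with a log2 fold change of 0.091 (standard error 0.269), -0.15 without *Ythdf2-/-* replicate 3, 0.32 without *Ythdf2-/-* replicate 2 and -0.017 without wild-type replicate 3. The other heavy chain, *Slc3a1*, had 3, 2 and 3 reads in wild type and 4, 2 and 1 in *Ythdf2-/-* libraries, and its exons share 606 bases with the opposite-strand gene *Prepl*.

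**Figure D3:**
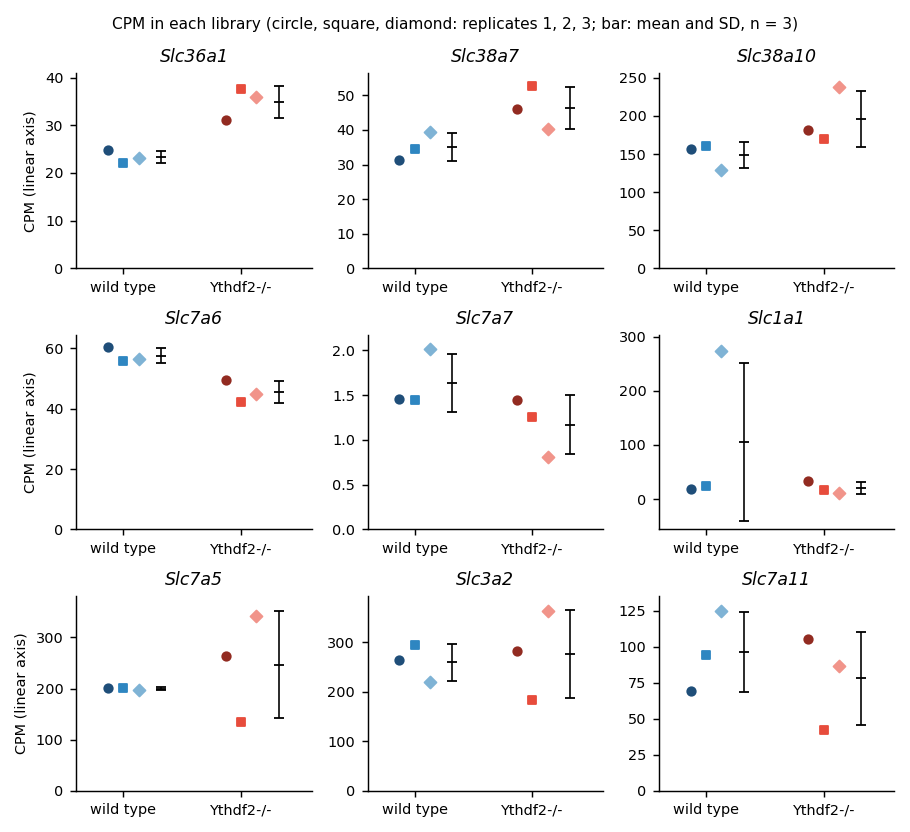
CPM of 9 transporter genes in each library, wild type in blue and *Ythdf2-/-* in red, with the mean and SD of 3 libraries beside each genotype. The upper row shows the 3 genes with *Ythdf2-/-* above wild type in every library, the middle row 2 with *Ythdf2-/-* below and *Slc1a1* with 274 CPM in wild-type replicate 3, and the lower row *Slc7a5*, *Slc3a2* and *Slc7a11*, whose genotypes overlap.

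*Slc7a11* (xCT) exchanges extracellular cystine for glutamate and pairs with *Slc3a2*. It lies on chromosome 3 (GRCm38, 50364936 to 50443613, minus strand, 12 exons after merging of overlapping exons). In the counted reads it lay at 69.7, 94.7 and 125 CPM in wild type and at 106, 42.5 and 86.4 CPM in *Ythdf2-/-* libraries. The lowest and the second-highest values were mutant libraries, and the genotypes overlapped. The means were 96.4 ± 27.7 and 78.2 ± 32.4 CPM (SD, n = 3 each). The fitted log2 fold change was -0.30 (standard error 0.373, unadjusted p = 0.447, adjusted p = 0.999 by edgeR). It was -0.57 without *Ythdf2-/-* replicate 1, -0.073 without wild-type replicate 3 and 0.0083 without *Ythdf2-/-* replicate 2. The partner *Slc3a2* had its lowest value in the same library, *Ythdf2-/-* replicate 2, but its highest in another.

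A second deposited table, of expected counts per gene, gave another picture of *Slc7a11*. There it was the gene with the most counts in each of the 6 libraries, at 19866, 23292 and 22393 expected counts in wild type and 13567, 18465 and 14153 in *Ythdf2-/-* libraries. This was 8.11%, 8.96% and 8.47% of all expected counts against 5.78%, 6.77% and 5.43%. In the counted reads it held 0.00695%, 0.00941% and 0.0124% against 0.0106%, 0.00436% and 0.00853%, ranking between 1987 and 5525. All wild-type shares were thus above all mutant shares in one table and not in the other. The expected counts summed to only 1.97% to 2.40% of the counted reads of a library, and *Slc7a11* made up 94.7% of all the members' expected counts against 2.18% of their counted reads. Of the members, 5 had more expected counts than counted reads in total, the largest excess after *Slc7a11* being *Slc3a1* with 907 against 15. With edgeR on the rounded expected counts, in which 12 members and 2559 genes were tested, *Slc7a11* gave a log2 fold change of -0.58 (standard error 0.284, unadjusted p = 0.0641, adjusted p = 0.9997). Genes with *Ythdf2-/-* below wild type in every library were 3.4% of those tested there. The reason for the difference between the tables was not tested.

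**Figure D4:**
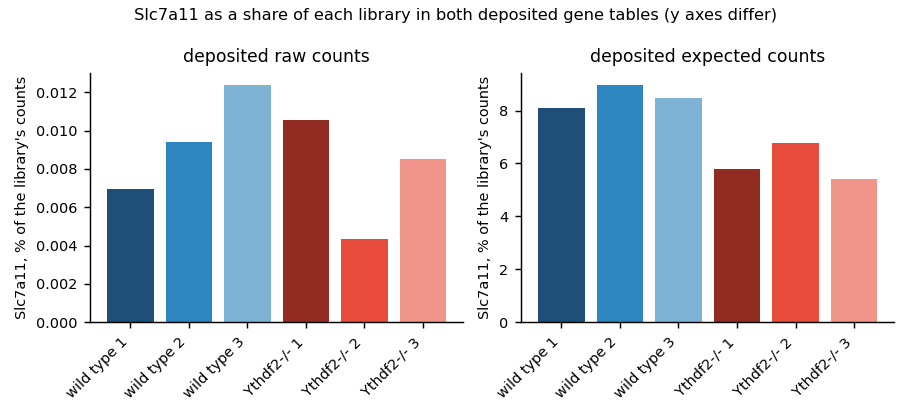
*Slc7a11* as a percentage of each library in the deposited raw counts (left) and the deposited expected counts (right), wild type in blue and *Ythdf2-/-* in red, 1 bar per library from 0, with different y axes. The raw shares overlap between genotypes, while the expected shares are 8.11% to 8.96% in wild type and 5.43% to 6.77% in *Ythdf2-/-* libraries.

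In the Slc1 family, *Slc1a1* (EAAC1), the glutamate and cysteine transporter of neurons, had the largest log2 fold change of all members and the widest spread. It lay at 17.8, 24.7 and 274 CPM in wild type and at 32.7, 17.1 and 10.9 CPM in *Ythdf2-/-* libraries. One library, wild-type replicate 3, was far above the other 5. The log2 fold change of -2.38 (standard error 1.13, unadjusted p = 0.0768, adjusted p = 0.999 by edgeR) was -0.075 without that library, and -2.88 to -2.08 without any other. The unadjusted p by edgeR was 0.0297 without wild-type replicate 1 and 0.0418 without wild-type replicate 2. In the same library the summed neuron markers were 1989 CPM against 1090 to 1332 CPM elsewhere, and the summed astrocyte markers 12166 CPM against 2752 to 7462 CPM. *Slc1a4* lay at 144, 140 and 147 CPM against 142, 136 and 170 CPM. It had the smallest ratio between libraries, with a log2 fold change of 0.056 (standard error 0.132) that was -0.049 without *Ythdf2-/-* replicate 3. *Slc1a5* (ASCT2), a glutamine exchanger, lay at 4.85 CPM in wild-type replicate 3 against 16.7 to 29.9 CPM in the others, and its log2 fold change of 0.063 was -0.41 without that library. *Slc1a6*, a glutamate transporter of Purkinje cells, lay at 1.04 to 2.40 CPM, with a log2 fold change of -0.30 (standard error 0.444) that was -0.025 without wild-type replicate 1 and -0.66 without *Ythdf2-/-* replicate 1.

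The Slc6 family holds sodium- and chloride-coupled transporters of transmitters and osmolytes, 8 of 19 members being tested. *Slc6a11*, which clears GABA into astrocytes, lay at 613, 689 and 409 CPM in wild type and at 777, 405 and 930 CPM in *Ythdf2-/-* libraries. The genotypes overlapped, and the log2 fold change of 0.30 (standard error 0.356) was 0.11 without wild-type replicate 3, 0.051 without *Ythdf2-/-* replicate 3 and 0.59 without *Ythdf2-/-* replicate 2. *Slc6a15*, a transporter of branched-chain amino acids and proline, lay at 3.17, 1.91 and 1.28 CPM against 1.19, 1.33 and 0.966 CPM. Its highest mutant value exceeded its lowest wild-type value, and the log2 fold change was -0.86 (standard error 0.423, unadjusted p = 0.086 by edgeR). Without wild-type replicate 3 it was -1.11 (unadjusted p = 0.0237, adjusted p = 0.242 by edgeR), and without wild-type replicate 1, its highest library, it was -0.45 (unadjusted p = 0.335).

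The remaining Slc6 members carry other substrates. The taurine transporter *Slc6a6* lay at 40.6 to 69.3 CPM in wild type and at 25.2 to 46.4 CPM in *Ythdf2-/-* libraries, a log2 fold change of -0.68 (standard error 0.323) that was -0.41 without wild-type replicate 3 and -1.02 (unadjusted p = 0.0128 by edgeR) without *Ythdf2-/-* replicate 2. The creatine transporter *Slc6a8* gave -0.14 (standard error 0.161), and -0.0090 without wild-type replicate 3 and -0.23 without *Ythdf2-/-* replicate 2. *Slc6a17*, a synaptic vesicle transporter, gave -0.44 (standard error 0.234, unadjusted p = 0.105), and without wild-type replicate 3 it gave -0.63 (unadjusted p = 0.00684, adjusted p = 0.190 by edgeR). *Slc6a9* lay at 118, 149 and 140 CPM against 187, 76.7 and 225 CPM. The mutant libraries enclosed the wild-type range, and the log2 fold change of 0.26 (standard error 0.382) was -0.042 without *Ythdf2-/-* replicate 3 and 0.61 (unadjusted p = 0.0150 by edgeR) without *Ythdf2-/-* replicate 2. Its exons share 46 bases with the opposite-strand gene *Ccdc24*. *Slc6a18* gave -0.25 (standard error 0.355), and 0.098 without wild-type replicate 3.

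In the Slc43 family, 2 of 3 members were tested, both facilitators of large neutral amino acids, and the genotypes overlapped in both. *Slc43a2* (LAT4) lay at 34.1, 39.2 and 52.7 CPM in wild type and at 46.6, 53.9 and 57.0 CPM in *Ythdf2-/-* libraries. Wild-type replicate 3 overlapped the mutant range, and the log2 fold change of 0.32 (standard error 0.196) was 0.52 without it (unadjusted p = 0.00696, adjusted p = 0.190 by edgeR) and 0.19 without wild-type replicate 1. *Slc43a1* (LAT3) lay at 8.73, 5.49 and 1.19 CPM against 6.22, 5.26 and 9.17 CPM. Wild-type replicate 3 was the lowest, and the log2 fold change of 0.42 (standard error 0.657) was -0.045 without it and 1.03 without wild-type replicate 1.

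Spread within a genotype followed certain libraries. Wild-type replicate 3 was the highest or lowest of the 6 libraries in 21 of the 35 members (60.0%, against 68.3% of all genes). It was the highest in 15 of the 35 (33.8% of all genes) and the lowest in 6 (34.4% of all genes). *Ythdf2-/-* replicate 3 was the highest in 12 of the 35 members and *Ythdf2-/-* replicate 2 the lowest in 12 of the 35, against 16.3% and 14.3% of all genes. Both held together in 6 members (17.1%, against 3.43% of all genes), namely *Slc1a4*, *Slc3a2*, *Slc6a9*, *Slc6a11*, *Slc7a5* and *Slc38a3*. The left-out *Slc1a2* and *Slc1a3* had the same lowest and highest libraries, with *Slc1a3* at 1407 CPM in *Ythdf2-/-* replicate 2 and 3743 CPM in *Ythdf2-/-* replicate 3. The summed CPM of all members was 3168 in *Ythdf2-/-* replicate 2 and 5017 in *Ythdf2-/-* replicate 3, against 3573 to 4165 in the other 4 libraries. The summed astrocyte markers were also lowest in *Ythdf2-/-* replicate 2, at 2752 CPM, but were 3902 CPM in *Ythdf2-/-* replicate 3, second from the bottom, and their part in the spread was not tested.

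The genes through which cells read amino acid supply were measured alongside. This list of 37 genes holds the kinase gene *Eif2ak4* (GCN2) and its effector *Atf4*, the Sestrin and CASTOR sensors, the Rag, Ragulator, GATOR, KICSTOR and folliculin complexes, and the core of mTORC1. Of 36 tested, 0 had an unadjusted p under 0.05 by edgeR, against 3.63% of all genes, and 0 an adjusted p under 0.05. DESeq2 also gave 0 at an unadjusted p under 0.05, limma-voom with sample quality weights gave 11, where 28.1% of all genes passed, and edgeR without wild-type replicate 3 gave 9, where 16.6% of all genes passed. The log2 fold change was above 0 in 22 and below 0 in 14, with a median of 0.051. *Atf4* lay at 188, 181 and 150 CPM in wild type and at 188, 168 and 200 CPM in *Ythdf2-/-* libraries, which overlapped.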

How the data were processed

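Per the labels, 3 wild-type and 3 *Ythdf2-/-* input libraries were analysed. The 6 m6A-IP libraries were not analysed here. The authors used TopHat alignments to mm10 and deposited raw counts of reads per gene without normalization, together with a table of expected counts per gene. The submitters' processing notes name Bowtie2 2.2.9, RSEM 1.2.15 and featureCounts. The strand setting and the treatment of reads mapping to several genes are not given in the sources used here. From the raw counts, CPM (TMM) were computed, and 13112 genes passing filterByExpr were tested with edgeR 4.0.16 (glmQLFit, robust; glmQLFTest; genotype as the only term; Benjamini-Hochberg over all genes tested) in R 4.3.3. An exact permutation test of 3 against 3 cannot go below 0.1. RPKM used merged RefSeq exons (GRCm38.p6). Alternatives were DESeq2 1.42.0, limma-voom (limma 3.58.1) with sample quality weights, relative log expression size factors, other filters, a replicate block, a term for Y-linked reads and leaving out each library. The fit on rounded expected counts was chosen after seeing the data. Scripts were tested on simulated data. Members and lists were chosen with earlier results of these data known. Members were named with the value in each library for *Slc7a11* and *Slc3a2*, the 2 highest per family by RPKM, an unadjusted p under 0.05, genotypes that did not overlap, or the 3 largest fold changes in each direction. *Slc6a9* and *Atf4* were added after their values were seen. One tested member that these rules name is counted in the totals, but its own values are not reported here.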

Additional observations from a re-analysis of the deposited data

Results flagged for a closer look

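*Slc7a11* carried a signal in data outside the main measurement, the deposited expected counts, where it held 5.43% (lowest library, *Ythdf2-/-* replicate 3) to 8.96% (highest library, wild-type replicate 2) of all expected counts, above its share of the counted reads in each library. The cause was not tested.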

How the results depend on the processing

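No member was called at an adjusted p under 0.05 in any of the 13 alternatives to the reported fit. The log2 fold changes of *Slc36a1* (0.52 to 0.66), *Slc38a7* (0.31 to 0.49), *Slc38a10* (0.24 to 0.52) and *Slc7a6* (-0.39 to -0.27) kept their sign in all of them, while adjusted p for *Slc36a1* ran from 0.0533, with quality weights, to 0.99998. With quality weights, which gave wild-type replicate 3 a weight of 0.0957, the sign turned for *Slc1a1* (0.037), *Slc38a1* (0.10), *Slc7a2* (0.12) and *Slc7a11* (0.085). On leaving out each library in turn, 14 of the 35 members changed sign. Among those named with every library's value, they ran from -0.049 to 0.13 for *Slc1a4*, -0.26 to 0.075 for *Slc38a1*, -0.26 to 0.34 for *Slc38a3*, -0.15 to 0.32 for *Slc3a2*, -0.045 to 1.03 for *Slc43a1*, -0.57 to 0.0083 for *Slc7a11* and -0.0071 to 0.61 for *Slc7a5*. The other members were *Slc1a5* (-0.41 to 0.39), *Slc6a9* (-0.042 to 0.61), *Slc6a18* (-0.47 to 0.098), *Slc7a1* (-0.23 to 0.39), *Slc7a4* (-0.22 to 0.10), *Slc38a6* (-0.21 to 0.47) and *Slc38a9* (-0.23 to 0.43). DESeq2 gave no p for *Slc1a1*. With the term for Y-linked reads, *Slc38a1* gave -0.39 (unadjusted p = 0.0199, adjusted p = 0.365 by edgeR), outside its range above. So did *Slc43a1* at 1.17 (unadjusted p = 0.0627, adjusted p = 0.471 by edgeR). That fit also gave unadjusted p = 0.00412 for *Slc38a10* (0.52) and 0.0111 for *Slc1a1* (-2.28) by edgeR, where 10.95% of all genes had one under 0.05.

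The median log2 fold change of the members was 0.057 with quality weights, -0.18 with the term for Y-linked reads and -0.17 to 0.022 on leaving out a library. Members with an unadjusted p under 0.05 and a higher level in *Ythdf2-/-* cells numbered 4 of 35 with quality weights (14.7% of all genes). They numbered 3 of 35 with the term for Y-linked reads (5.23% of all genes). On leaving out a library they numbered 1 to 4, with 4 of 35 without *Ythdf2-/-* replicate 2 (2.11% of all genes). Those with a lower level numbered 4 with quality weights (13.4% of all genes), 4 with the term for Y-linked reads (5.72%) and 0 without a filter (1.85%). On leaving out a library they numbered 0 to 3, with 3 of 36 without wild-type replicate 3 (8.58% of all genes). At an unadjusted p under 0.05 in either direction stood 28.1% of all genes with quality weights, 10.95% with the term for Y-linked reads, 3.35% without a filter and 1.85% to 16.6% on leaving out a library. Members not overlapping numbered 6 (17.1%, without *Ythdf2-/-* replicate 3) to 14 (40.0%, without *Ythdf2-/-* replicate 2), against 15.99% and 22.2% of all genes in those fits, and 14.48% to 38.9% of all genes over the 6 fits. Sensing genes with an unadjusted p under 0.05 numbered 11 with quality weights, 2 with the term for Y-linked reads and 0 to 9 on leaving out a library.

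With the replicate number as a block, the members with an unadjusted p under 0.05 were 1 higher and 0 lower, where 1.40% of all genes passed in either direction. Deviations of same-numbered libraries from their genotype means correlated at -0.248, -0.244 and -0.394, and those of differently numbered libraries at -0.192 to 0.399. With 3 libraries per genotype these values cannot decide whether any were prepared together, and the labels do not say. The cause of these shifts was not tested. Genes with few reads, such as *Slc7a7* and *Slc6a15*, are limited by depth, and counts of *Slc7a7*, *Slc7a10*, *Slc3a1* and *Slc6a9* may include reads of genes on the opposite strand.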
